A study of Mus musculus with 6 samples.

Results

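The early growth response (Egr) transcription factors Egr1, Egr2 and Egr3 were followed in mouse layer 4 star pyramid neurons after an eye had been silenced. The members were the transcript clusters, the units that an exon array summarises into 1 value, whose single gene symbol in the platform annotation was Egr1 (cluster 6859972), Egr2 (cluster 6768479) or Egr3 (cluster 6820055). Each gene had 1 such cluster, so 3 of 14859 named genes were examined. The study profiled 2 groups of 3 arrays each, both from mice of postnatal day 14 that had undergone monocular deprivation by tetrodotoxin (TTX), a blocker of voltage-gated sodium channels, injected at postnatal day 12 to 13 and again at 13 to 14. The deprived group came from the deprived hemisphere and the non-deprived group from the non-deprived hemisphere. Both groups held m-Citrin-labelled neurons picked by hand from acutely dissociated visual cortex, and their total RNA, 0.3 to 1 ng, went through 2 rounds of amplification. The mouse line, the number of animals and whether cells were pooled are not stated in the labels. All non-deprived samples carry the letter l and all deprived samples the letter r, so hemisphere side, if that is what the letters mark, cannot be told apart from deprivation.

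Egr proteins are zinc finger transcription factors that bind GC-rich sites in promoters. Their genes are immediate-early genes: neurons transcribe them within minutes of synaptic activity through calcium and ERK signalling, which act on serum response factor at CArG boxes and on CREB at cAMP response elements. Egr1, also known as Zif268 or Krox-24, is widely used as an activity marker in visual cortex, where its expression is known to depend on input from the eyes. Egr2, or Krox-20, is known for hindbrain patterning and for the myelination programme of Schwann cells. Egr3 is known for its role in muscle spindle development and in neuronal plasticity. Nab1 and Nab2 encode co-regulators that bind Egr proteins and mostly repress their activity. Dissociation of tissue is itself known to induce immediate-early genes, and both groups went through it.

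The promoters of Egr2 and Nab1 are shown because they hold the kinds of site through which Egr genes are switched on and on which Egr proteins act. The RefSeq promoter table (GRCm38.p6, 250 bases before to 50 after each start) held 1 of the 3 members, Egr2, with 5 starts. The 250 bases before its second and the third start in genome order are printed 5′ to 3′ on the gene's strand, at chr10:67537316-67537565 and chr10:67537619-67537868, both on the plus strand. Nab1 is at chr1:52500449-52500698 on the minus strand. Capitals mark CArG boxes and TGACG, the half-site of the cAMP response element, in the Egr2 promoters, and the Egr motif GCGNGGGCG and TGACG in the Nab1 promoter, each on either strand.
Egr2, the second start: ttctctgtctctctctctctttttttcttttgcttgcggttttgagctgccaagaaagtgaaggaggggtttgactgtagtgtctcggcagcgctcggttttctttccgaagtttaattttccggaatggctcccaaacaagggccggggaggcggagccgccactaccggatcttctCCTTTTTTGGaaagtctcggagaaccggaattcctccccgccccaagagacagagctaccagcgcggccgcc
Egr2, the third start: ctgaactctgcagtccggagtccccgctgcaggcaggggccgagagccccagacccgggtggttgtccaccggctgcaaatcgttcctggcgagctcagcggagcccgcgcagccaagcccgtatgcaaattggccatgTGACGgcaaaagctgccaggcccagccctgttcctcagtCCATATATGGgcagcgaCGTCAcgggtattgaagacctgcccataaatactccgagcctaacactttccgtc
Nab1: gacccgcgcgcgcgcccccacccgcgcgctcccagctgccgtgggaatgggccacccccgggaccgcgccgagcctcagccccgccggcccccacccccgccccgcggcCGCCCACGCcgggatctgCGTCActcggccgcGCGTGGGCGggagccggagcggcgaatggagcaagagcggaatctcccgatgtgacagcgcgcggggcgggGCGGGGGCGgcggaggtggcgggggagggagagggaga

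Before the second start of Egr2 a CArG box lay at -72 to -63, counted from the start. Before the third start a CArG box lay at -72 to -63 as well, with TGACG half-sites at -111 to -107 and, on the opposite strand, at -55 to -51. CArG boxes were present in 1.63% of the 32851 promoter windows of the table and TGACG in 20.8%. The Nab1 window held 3 Egr motifs, at -141 to -133, -109 to -101 and -38 to -30, and all 3 overlapped a match to GGGCGG, the SP1-type GC box. The Egr motif was present in 5.55% of windows and GGGCGG in 35.7%. The Nab2 window held no match to the Egr motif. A match is a run of letters and not a measured binding site.

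Levels of cell type markers were read on each array. Excitatory neuron markers, 7 of 8 measured, had median levels of 7.77 to 8.41 in the deprived and 6.83 to 8.23 in the non-deprived group. Slc17a7, the vesicular glutamate transporter VGLUT1 of cortical excitatory neurons, was at 9.92, 10.20 and 10.35 on deprived arrays 1 to 3 and at 9.44, 8.92 and 9.04 on non-deprived arrays 1 to 3 (log2 values, as all levels here), and Rorb, a layer 4 marker, was between 7.77 and 8.41 in the deprived and between 6.83 and 8.57 in the non-deprived group. Interneuron markers, 7 of 8 measured, had median levels of 6.28 to 7.38 in the deprived and 5.98 to 6.79 in the non-deprived group. They ranged widely. Vip was between 3.13 and 3.55 in the deprived and between 3.28 and 3.58 in the non-deprived group. Sst, the precursor of somatostatin, was between 10.08 and 11.59 in the deprived and between 10.46 and 11.36 in the non-deprived group. Gad2, another of these markers, was between 7.81 and 9.13 in the deprived and between 5.98 and 8.99 in the non-deprived group. Astrocyte markers (6 of 7 measured) had a median level of 6.14 on deprived array 1, of 4.89 and 5.05 on deprived arrays 2 and 3, and of 5.04 to 5.13 in the non-deprived group, so that deprived array 1 stood above the other arrays. Microglial markers (8 of 8 measured) had median levels of 4.59 to 4.78 in the deprived and 4.61 to 4.97 in the non-deprived group, and vascular markers (8 of 8) of 4.41 to 4.51 and 4.36 to 4.43. The medians of oligodendrocyte lineage markers (8 of 9) were 5.21 to 5.42 in the deprived and 5.01 to 5.43 in the non-deprived group. Non-deprived arrays 2 and 3 had lower upper quartiles over the named genes, 6.43 and 6.55, than the other 4 arrays, with 7.01 to 7.15. As a background measured the same way, 835 olfactory, vomeronasal and taste receptor genes were used. Their array medians were 2.94 to 3.04 in the deprived and 2.98 to 3.24 in the non-deprived group. Their 95th percentiles were 5.37 to 5.58 and 5.43 to 5.71. The excitatory marker Neurod2, between 4.68 and 5.52, lay below the 95th percentile of the same array on every array.

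The comparison of the hemispheres asks how transcripts of these neurons respond when the eye is silenced. None of the 3 Egr transcripts passed the test: the means of Egr1 differed by 1.06-fold, Egr2 was on average 1.58-fold and Egr3 1.71-fold higher in the deprived group, and each difference lay within the spread between arrays. Limma called 0 of the 14859 named genes at an adjusted p under 0.05, a share of 0%, and 775 genes (5.22%) had an unadjusted p under 0.05, among which were 0 of the 3 members. Separate groups, with every deprived array above or every deprived array below all non-deprived arrays, were found in 0 of the 3 members and in 10.3% of all named genes. Nothing in the labels ties the 3 samples of a group to separate animals, so p-values measure the spread between these samples only. In bulk samples such as these, fewer cells with a transcript and less of it per cell cannot be told apart.

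**Figure D1:**
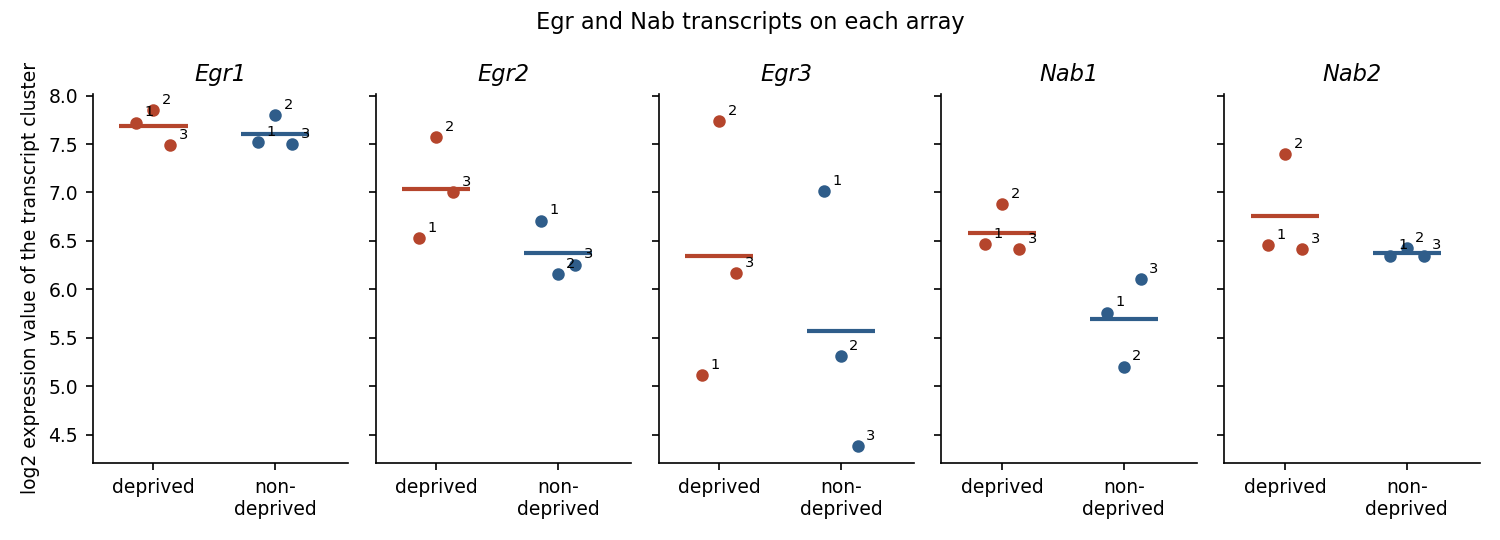
Log2 expression values of Egr1, Egr2, Egr3 and the co-regulators Nab1 and Nab2 (y axis), with 1 point per array labelled by its number, deprived arrays left of non-deprived arrays, and a bar at each group mean. Egr1 stays between 7.49 and 7.85 on all 6 arrays, while Egr3 spans 4.38 to 7.74, and deprived array 2 is the highest point in every panel.

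Egr1 was at 7.72, 7.85 and 7.49 on deprived arrays 1 to 3, and at 7.52, 7.80 and 7.50 on non-deprived arrays 1 to 3. The groups covered nearly the same range, and both the highest and the lowest of the 6 values were in the deprived group. The deprived mean was 7.68 ± 0.18 and the non-deprived mean 7.61 ± 0.17 (SD, n = 3 arrays each), a log2 difference of 0.08 with a 95% interval of -0.69 to 0.85 (limma adjusted p = 0.978; exact permutation test, two-sided, p = 0.7). As a fold change the interval runs from 0.620 to 1.80 and so includes changes in either direction. The sign of this small difference turned after quantile normalization (-0.21) and after median centring (-0.019), and without deprived array 2 it was -0.0033.

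Egr2 was at 6.53, 7.57 and 7.0 on deprived arrays 1 to 3, and at 6.71, 6.16 and 6.25 on non-deprived arrays 1 to 3. Deprived arrays 2 and 3 lay above all non-deprived arrays, and deprived array 1 lay below non-deprived array 1, so the groups overlapped by that array. The deprived mean was 7.03 ± 0.52 and the non-deprived mean 6.37 ± 0.30 (SD, n = 3 arrays each), a log2 difference of 0.66 ± 0.38 (SE) with a 95% interval of -0.24 to 1.56 (limma adjusted p = 0.856; exact permutation p = 0.2, where 0.1 is the smallest that 3 against 3 arrays allow). The difference kept its sign in every setting tried. It was 0.39 without deprived array 2, 0.32 without both non-deprived arrays 2 and 3, and 0.33 with quantile-normalized values.

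Egr3 was at 5.12, 7.74 and 6.17 on deprived arrays 1 to 3, and at 7.01, 5.31 and 4.38 on non-deprived arrays 1 to 3. High and low arrays were mixed between the groups: the highest value belonged to the deprived and the next to the non-deprived group. On deprived array 1 and non-deprived arrays 2 and 3, Egr3 lay below the 95th percentile of the chemosensory receptor genes of the same array, which sets no floor for any one cluster. The deprived mean was 6.34 ± 1.32 and the non-deprived mean 5.57 ± 1.33 (SD, n = 3 arrays each), a log2 difference of 0.77 ± 0.87 (SE) with a 95% interval of -1.30 to 2.85 (limma adjusted p = 0.897; exact permutation p = 0.6). Single arrays decided its size: it was 0.07 without deprived array 2, or 0.18 with non-deprived array 3 removed, but 1.38 without deprived array 1, or 1.49 with non-deprived array 1 removed. Without non-deprived arrays 2 and 3 together it was -0.67.

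**Figure D2:**
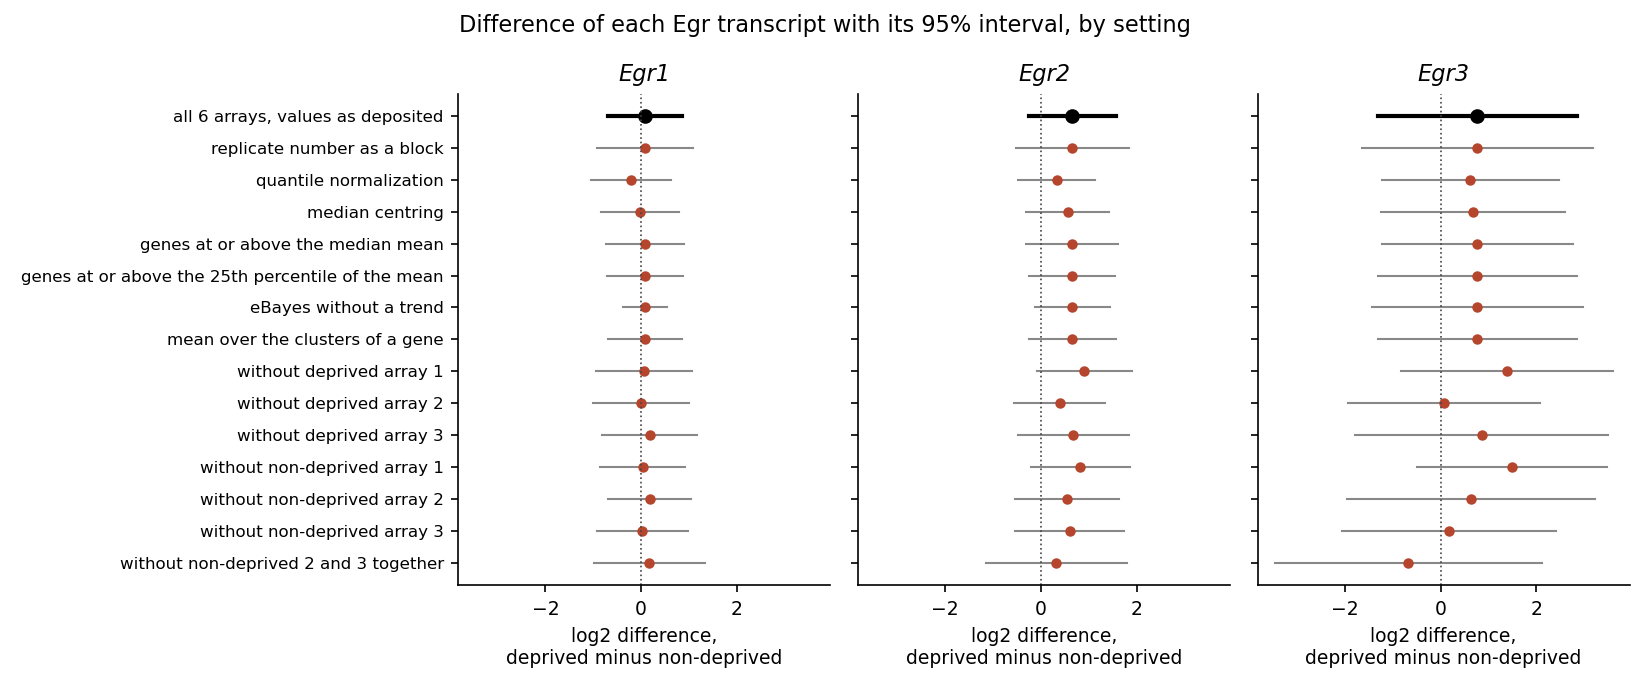
Log2 difference, deprived minus non-deprived, of Egr1, Egr2 and Egr3 (points, x axis, the same in all panels) with its 95% interval (lines), for all 6 arrays in black and for each other setting below it. Every interval crosses 0, and the intervals of Egr3 are the widest.

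The members differed most in how much they varied between arrays of one group. The residual SD within groups was 0.18 for Egr1, 0.42 for Egr2 and 1.33 for Egr3, compared with a median of 0.37 over all named genes. Among the 1000 genes nearest to it in mean level, Egr1 had a residual SD at percentile 1.4, so nearly all genes of like level varied more. Egr2 was at percentile 25.3 of its own 1000 neighbours and Egr3 at percentile 96.6. Across all 6 arrays the values spanned 0.36 log2 units for Egr1, 1.41 for Egr2 and 3.36 for Egr3, whose 3 lowest arrays are those below the receptor percentile and so not shown to be above background. The range within a group was about as wide in the deprived as in the non-deprived arrays for Egr3 (2.62 and 2.63 log2 units) and for Egr1 (0.36 and 0.30), while for Egr2 it was 1.04 among deprived and 0.55 among non-deprived arrays.

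**Figure D3:**
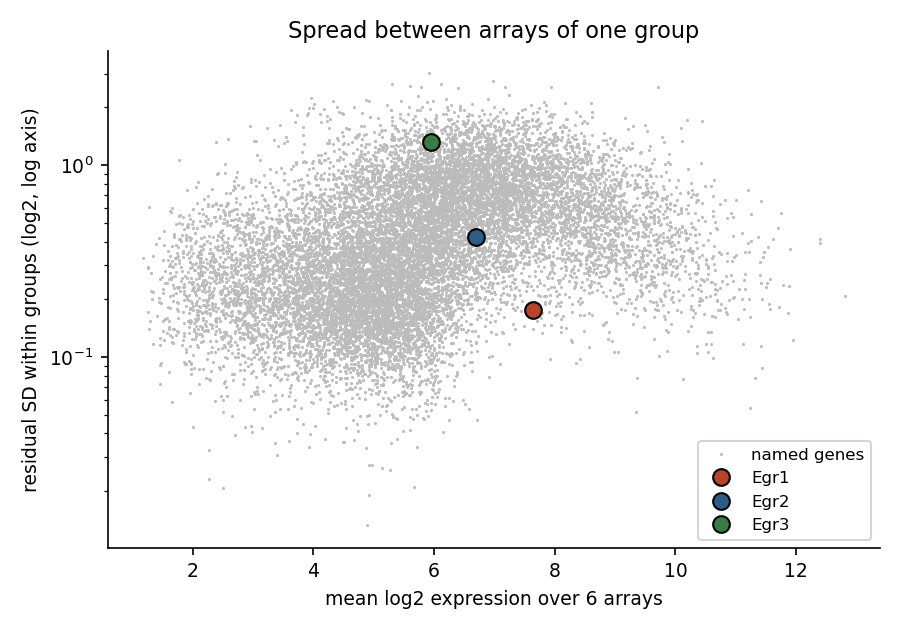
Residual SD within groups (y axis, log scale) against the mean log2 expression over 6 arrays (x axis) for all named genes (grey points), with Egr1, Egr2 and Egr3 as large points. Egr1 lies at the lower edge of the genes of its level (residual SD 0.18) and Egr3 near the upper edge (1.33).

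A difference between members on the same array cancels any shift common to that array, and only its change between groups is read here, since levels of different probe sets are not comparable. Egr2 minus Egr1 was -1.19, -0.28 and -0.49 on deprived arrays 1 to 3, and -0.81, -1.64 and -1.25 on non-deprived arrays 1 to 3. Egr2 relative to Egr1 was higher on deprived arrays 2 and 3 than on any non-deprived array, but lower on deprived array 1 than on non-deprived array 1. The change between groups was 0.58 ± 0.37 (SE; exact permutation p = 0.2, adjusted over the 3 pairs of members p = 0.6). Egr3 relative to Egr1 changed by 0.69 ± 1.07 (exact permutation p = 0.6, adjusted p = 0.9) and Egr3 relative to Egr2 by 0.11 ± 0.78 (exact permutation p = 0.9, adjusted p = 0.9). No pair of members was shown to differ in its response, and with errors of this size a difference of 1 log2 unit that involves Egr3 was not detectable. The sign of Egr3 relative to Egr2 turned without deprived array 2 (-0.32) or with non-deprived array 3 removed (-0.42).

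The co-regulators and relatives of the Egr factors were measured at 6 of 7 listed genes, of which 4 were higher and 2 lower in the deprived group and 0 passed the adjusted test; their median log2 difference was 0.22, compared with 0.05 over all named genes, of which 56.3% were higher. After quantile normalization these medians were 0.05 and -0.04, and without non-deprived array 1 that of the relatives was 0.36. Level moved with such medians: over genes with a promoter in the promoter table and a level at or above the median it was 0.23. Each list median below is to be read beside this value as well. Nab1 was at 6.46, 6.88 and 6.42 on deprived arrays 1 to 3, and at 5.76, 5.20 and 6.11 on non-deprived arrays 1 to 3. The groups did not overlap, as in 6.3% of all named genes with every deprived array above. On non-deprived array 2 Nab1 lay below the 95th percentile of the chemosensory receptor genes. Its log2 difference was 0.90 ± 0.32 (SE; limma adjusted p = 0.856, unadjusted p = 0.0280), and leaving out each array in turn gave 0.65 to 1.10. Nab2, whose transcription Egr proteins are known to induce, was at 6.45, 7.40 and 6.41 on deprived arrays 1 to 3 and at 6.35, 6.42 and 6.35 on non-deprived arrays 1 to 3. Nab2 was thus alike on 5 arrays and higher on deprived array 2, the array with the highest Egr1, Egr2 and Egr3, and its difference of 0.38 ± 0.36 (SE) was 0.06 without it and 0.05 after quantile normalization. Deprived array 2 was the highest of the 6 arrays for 17.2% of all named genes, and for 21.8% of those with a mean level at or above the median.

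Among relatives that bind GC boxes, Sp4, an activator abundant in neurons, was at 7.05, 5.88 and 7.01 on deprived arrays 1 to 3 and at 6.30, 4.10 and 5.11 on non-deprived arrays 1 to 3. Its log2 difference was 1.48 ± 0.61 (SE; limma adjusted p = 0.856), 0.94 without non-deprived array 2, and 0.35 once non-deprived arrays 2 and 3 were both left out. On both of those arrays Sp4 lay below the 95th percentile of the chemosensory receptor genes. The ubiquitous factors Sp1 (0.07) and Sp3 (-0.04) had differences near 0 whose signs turned when single arrays were left out. Sp1 lay below the 95th percentile of the chemosensory receptor genes on every array, and so was not shown to be above background. Wt1 is the Wilms tumour factor with Egr-like zinc fingers. It was between 5.61 and 5.78 in the deprived and between 5.79 and 5.85 in the non-deprived group. These groups did not overlap, as in 10.3% of all named genes in either direction. The difference was -0.12 ± 0.19 (SE), -0.08 without deprived array 1, -0.22 after median centring and -0.32 after quantile normalization.

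Genes that act upstream of Egr transcription were measured at 16 of 21 listed members, 13 higher and 3 lower in the deprived group, with a median of 0.38 against 0.05 over all named genes, and 0 passed the adjusted test. This median was 0.23 without non-deprived array 2 and 0.20 after quantile normalization. Genes with a promoter in the promoter table and a level at or above the median had a median of 0.23 on all arrays. Srf, the serum response factor that binds CArG boxes, was at 6.11, 6.48 and 6.27 on deprived arrays 1 to 3 and at 6.08, 5.57 and 6.53 on non-deprived arrays 1 to 3, with overlapping groups and a difference of 0.23 ± 0.32 (SE) that was -0.02 without non-deprived array 2, 0.13 without deprived array 2, 0.46 without non-deprived array 3 and -0.0096 after quantile normalization. Elk1, an ERK-regulated partner of serum response factor, was at 7.22, 7.01 and 6.89 on deprived arrays 1 to 3 and at 6.38, 6.63 and 6.18 on non-deprived arrays 1 to 3. All deprived arrays lay above the non-deprived ones for Elk1, in this list for 1 of the 16 genes, and for 6.3% of all named genes. The log2 difference of Elk1 was 0.64 ± 0.29 (SE, limma adjusted p = 0.856). It stayed between 0.53 and 0.76 in the fits without 1 array and was 0.31 after quantile normalization. Elk4, another partner of this kind, differed by 0.89 ± 0.39 (SE) and Mrtfb, an actin-regulated coactivator of serum response factor, by 0.82 ± 0.39 (SE), both with overlapping groups and an adjusted p of 0.856 in limma. Elk4 differed by 0.54 without deprived array 3, and Mrtfb by 0.51 without non-deprived arrays 2 and 3 together. On non-deprived array 2, Srf and Elk4 lay below the 95th percentile of the chemosensory receptor genes.

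Genes reported as Egr targets were measured at 14 of 15 listed members, 9 higher and 5 lower in the deprived group, with a median of 0.12 against 0.05 over all named genes, and 0 passed the adjusted test. The median was 0.41 without deprived array 1, 0.25 without non-deprived array 1, 0.07 without non-deprived array 3, 0.02 after quantile normalization, and -0.02 once non-deprived arrays 2 and 3 were both left out. Arc, which acts in the trafficking of glutamate receptors at synapses, was at 6.55, 6.20 and 7.23 on deprived arrays 1 to 3 and at 7.12, 6.46 and 6.62 on non-deprived arrays 1 to 3. The groups overlapped throughout and the difference was -0.07 ± 0.39 (SE), which ran from -0.36 (without deprived array 3) to 0.16 (without deprived array 2) when each array was left out. Quantile normalization gave -0.36, and leaving out both non-deprived arrays 2 and 3 gave -0.46. Dlg4, the postsynaptic scaffold PSD-95, had a difference of 0.70 ± 0.26 (SE, limma adjusted p = 0.856). This difference was 0.31 once non-deprived arrays 2 and 3 were both left out. Every deprived array was above all non-deprived arrays for Dlg4, as in 6.3% of all named genes. Ngfr, the neurotrophin receptor p75, was between 5.67 and 6.05 in the deprived and between 6.26 and 6.30 in the non-deprived group. Its groups did not overlap, as in 10.3% of all named genes in either direction. The difference was -0.47 ± 0.23 (SE, limma adjusted p = 0.856), and -0.71 after quantile normalization. Bace1, the beta-secretase, had a difference of 1.58 ± 0.77 (SE). This was 0.86 without non-deprived array 2, 2.40 without non-deprived array 1 and -0.05 once non-deprived arrays 2 and 3 were both left out. On non-deprived array 2 Bace1 lay below the 95th percentile of the chemosensory receptor genes.

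Other immediate-early transcription factors were measured at 21 of 22 listed members, 16 higher and 5 lower in the deprived group, with a median of 0.22 against 0.05 over all named genes, and 0 passed the adjusted test. This median was 0.12 without deprived array 3 and 0.10 after quantile normalization. It was no higher than the 0.23 of genes with a promoter in the promoter table and a level at or above the median. Fos, a subunit of AP-1, was at 6.10, 6.79 and 7.26 on deprived arrays 1 to 3 and at 6.39, 8.0 and 6.53 on non-deprived arrays 1 to 3. Its highest array, non-deprived array 2, was the lowest of the 6 for Egr2, and without it the difference of -0.26 ± 0.55 (SE) was 0.25. Without deprived array 1 it was 0.05, and without deprived array 3, non-deprived array 1 or non-deprived array 3 it lay between -0.55 and -0.48. Npas4, which neurons induce in response to calcium entry, was between 8.17 and 9.13 in the deprived and between 5.67 and 9.56 in the non-deprived group, a difference of 1.48 ± 1.02 (SE) that was 0.74 without non-deprived array 2, or 2.69 with non-deprived array 3 removed. The nuclear receptor Nr4a2 had, like Egr2 and Egr3, its lowest deprived value on array 1 (5.12, with 7.88 and 7.17 on deprived arrays 2 and 3, against 4.86 to 5.28 in the non-deprived group), and its difference of 1.64 ± 0.68 (SE) was 1.06 without deprived array 2. Crem, a CREB-related factor, was between 5.23 and 5.36 in the deprived and between 4.75 and 5.06 in the non-deprived group. Its groups did not overlap, as in 6.3% of all named genes with every deprived array above. The difference was 0.37 ± 0.16 (SE, limma adjusted p = 0.856), and 0.22 without non-deprived arrays 2 and 3 together. Nr4a3, another nuclear receptor of the Nr4a family, differed by 0.47 ± 0.25 (SE) with overlapping groups, and by 0.29 without deprived array 3. On every array Crem lay below the 95th percentile of the chemosensory receptor genes, and so was not shown to be above background. Nr4a2 and Nr4a3 lay below that percentile on deprived array 1 and on all non-deprived arrays. Npas4 lay below it on non-deprived array 2.

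**Figure D4:**
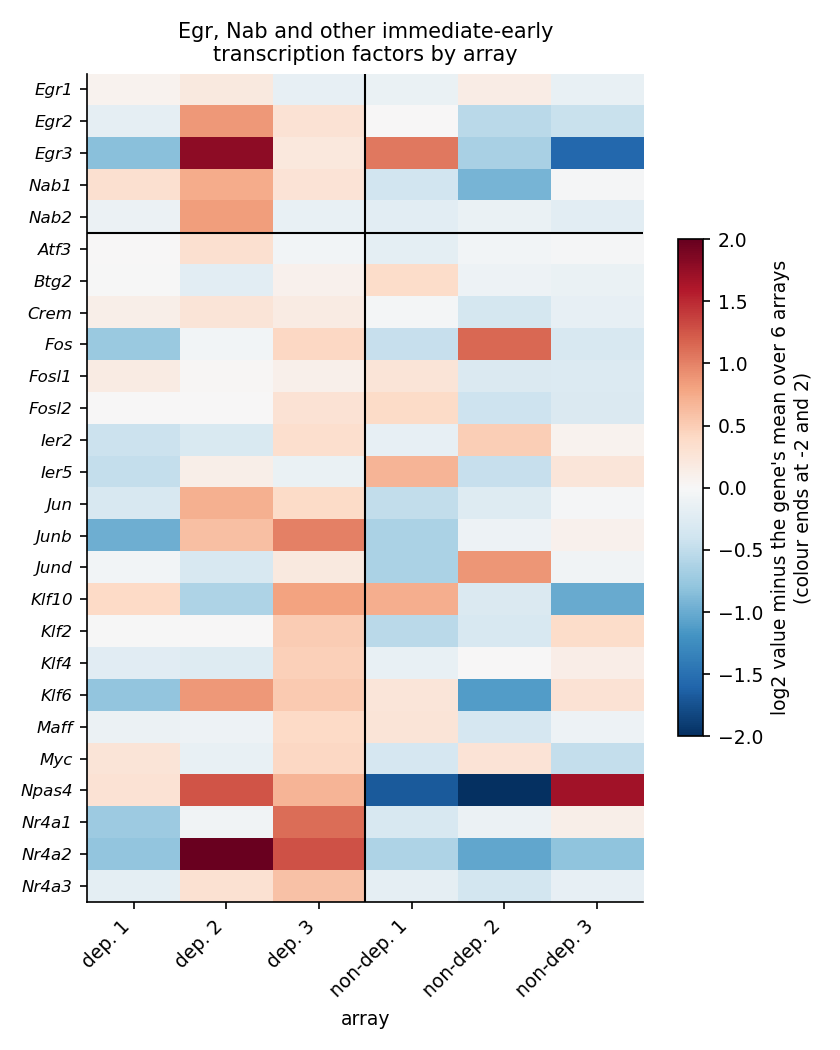
Log2 value minus the gene's mean over the 6 arrays (colour, ending at -2 and 2) for Egr1, Egr2, Egr3, Nab1, Nab2 and 21 other immediate-early transcription factors (rows) on the 3 deprived and 3 non-deprived arrays (columns). Egr1 is pale on all arrays, while Egr3, Npas4 and Nr4a2 show the deepest colours; in Egr3 high and low arrays occur on both sides of the line between the groups.

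ERK feedback genes, which encode phosphatases and adaptors that restrain the signal to the Egr genes, were measured at 13 of 14 listed members. In the deprived group 9 were higher and 4 lower, with a median of 0.13, and 0 passed the adjusted test. Groups did not overlap in 0 of the 13 genes and in 10.3% of all named genes, a share too small to read anything from this count. The median was 0.27 without deprived array 1, 0.28 without non-deprived array 1 and 0.02 after quantile normalization. Dusp1, itself an immediate-early gene, was at 8.98, 8.58 and 8.74 on deprived arrays 1 to 3 and at 8.23, 8.97 and 6.99 on non-deprived arrays 1 to 3, a difference of 0.70 ± 0.54 (SE) that was 0.16 without non-deprived array 3, or 1.15 with non-deprived array 2 removed. Errfi1, an inhibitor of the epidermal growth factor receptor, differed by 0.64 ± 0.35 (SE), and by 0.35 after quantile normalization. Spred2, an inhibitor of Ras signalling, differed by 0.44 ± 0.37 (SE), with 0.77 without deprived array 1, 0.29 without deprived array 2 and 0.26 without deprived array 3.

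**Figure D5:**
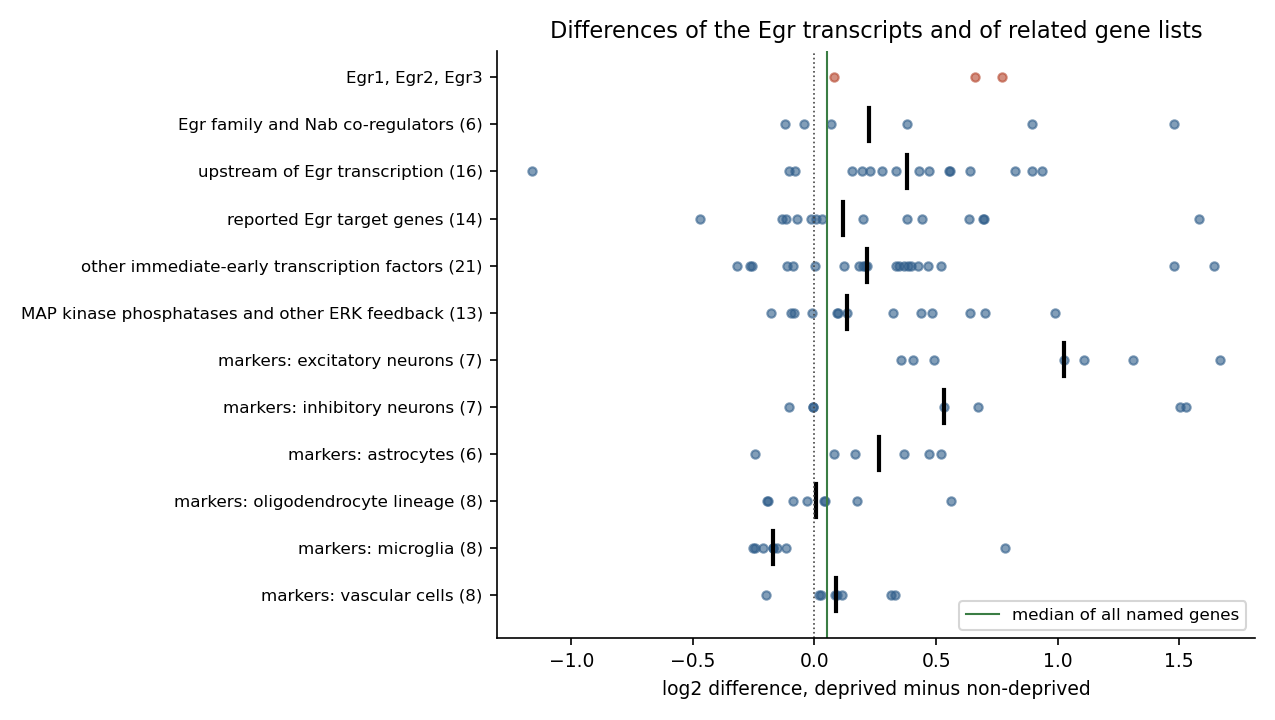
Log2 difference, deprived minus non-deprived (x axis), of Egr1, Egr2 and Egr3 (red points) and of the members of each gene list (blue points, measured members in parentheses), with a black bar at each list median and a green line at the median of all named genes, 0.05. The excitatory neuron markers have the highest median of these lists, 1.02 on all 6 arrays and 0.58 without non-deprived arrays 2 and 3, above that of the immediate-early factors, 0.22 and 0.28.

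Markers of excitatory neurons, 7 of 8 measured, had a median log2 difference of 1.02, and 7 were higher in the deprived group, with 0 past the adjusted test. Without non-deprived arrays 2 and 3 together their median was 0.58, and it was 0.70 without non-deprived array 3 on its own. Inhibitory markers had a median of 0.53, which was 0.10 without deprived array 2, 0.20 without non-deprived array 2, and -0.38 once non-deprived arrays 2 and 3 were both left out. The part of these markers, and of the astrocyte markers on deprived array 1, in the Egr2 and Egr3 values was not tested.

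The pattern of each member over the 6 arrays was set beside those of 7316 named genes with a mean level at or above the median, provisional symbols left out, by Pearson r of the log2 values, as a description. Some arrays may share an animal, and with 6 arrays and this many genes very high values occur for any gene. Egr2 and Egr3 had an r of 0.86 with each other, and 2.95% of all named genes had an r with Egr3 at least as high; without deprived array 2 it was 0.69. Egr1 had an r of 0.22 with Egr2 and of 0.25 with Egr3, which were -0.58 and -0.30 without deprived array 2. The genes most like Egr2 were Flot1 (0.990), which encodes a lipid raft protein, the transporter-related Slc7a4 (0.990) and the RNA acetyltransferase gene Nat10 (0.988). For Egr3 they were Arhgef4 (0.988), a guanine nucleotide exchange factor, Kbtbd4 (0.987) and Tbc1d24 (0.985), and for Egr1 the aminopeptidase Aopep (0.979), the deubiquitinase Usp8 (0.970) and Mctp1 (0.963). The genes with the most opposite patterns were Dctn5 (-0.991) and Tmed9 (-0.978) for Egr1, Ube2d3 (-0.982) and Bbs5 (-0.978) for Egr2, and Lingo2 (-0.994) and Ndufb5 (-0.976) for Egr3.

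Genes with the Egr motif GCGNGGGCG in a promoter window, on either strand, were described as a group of possible targets. Of 11893 named genes with a promoter in the table, 1191 (10.01%) held the motif, with 791 higher and 400 lower in the deprived group. Their median log2 difference was 0.17, compared with 0.05 over all genes with a promoter. For the other motifs the medians were 0.06 for the CArG box, 0.16 for TGACGTCA, the full cAMP response element, 0.14 for its half-site TGACG, and 0.12 for GGGCGG, which can overlap the Egr motif. Level moved with this comparison: genes with the Egr motif had a median mean level of 6.29, compared with 5.66 over all genes with a promoter, and among genes at or above the median level the medians were 0.28 and 0.23. Without non-deprived arrays 2 and 3 together the median of the Egr motif genes was 0.04, and 0.01 over all genes with a promoter. The split by level and the omission of these arrays were chosen for the motif medians after seeing the data. None of the 1191 genes passed the adjusted test, and 5.71% had an unadjusted p under 0.05, compared with 5.29% of all genes with a promoter.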

How the data were processed

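Expression was measured on 6 exon arrays, 1 per sample. The deposited table holds 1 log2 value for each of 23331 transcript clusters and array, as the authors processed it; the log2 scale is inferred from their range (0.584 to 13.6). How background, normalization and probe summaries were handled is not given in the sources used here. Per the submitters' processing notes, the build was mm9. Clusters were named through the platform annotation: 14995 had 1 symbol, 1019 several and 7317 no entry. For 135 genes with several clusters the one with the highest mean was used, which left 14859 genes, called the named genes. Values were used as deposited. No measure of detection was used, and precision is limited by the number of arrays.

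The groups were compared with limma 3.58.1 in R 4.3.3 (lmFit, eBayes with a trend, group as the sole term), with Benjamini-Hochberg adjustment over all 14859 genes at 0.05. Differences are deprived minus non-deprived, and intervals are 95% intervals of this fit. Single values were tested over arrays with exact two-sided permutation tests. The fit was tested on simulated data. The genes given by value were the members, the measured relatives and Nab genes, the 3 genes with the smallest p in each other list, Fos, Arc, Npas4, Srf and Elk1, markers, and, for each member, the 3 genes with the highest and the 2 with the lowest r among named genes at or above the median level, without provisional symbols (7316 genes). The members and lists were chosen with earlier results of these data known. Older list symbols were updated through RefSeq synonyms (GRCm38.p6). Motifs were searched on both strands of RefSeq promoters.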

Additional observations from a re-analysis of the deposited data

How the results depend on the processing

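No member passed the test under any of the 14 alternatives, and 0 genes were called under any of them. Egr2 kept its sign throughout. Egr1 differed by -0.21 after quantile normalization and by -0.019 after median centring, and Egr3 by -0.67 without non-deprived arrays 2 and 3 together. Leaving out each array in turn gave -0.0033 to 0.18 for Egr1, 0.39 to 0.91 for Egr2 and 0.07 to 1.49 for Egr3. Without non-deprived arrays 2 and 3, Egr3 relative to Egr1 changed by -0.84 and relative to Egr2 by -0.99. Leaving out each array gave 0.38 to 0.85 for Egr2 relative to Egr1, 0.08 to 1.46 for Egr3 relative to Egr1 and -0.42 to 0.67 for Egr3 relative to Egr2. The cause of these turns was not tested beyond the arrays named.

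Same-numbered arrays of the groups did not deviate together (r of -0.05, -0.02 and -0.0033 over genes). Differently numbered arrays had r of -0.01 to 0.03. Values this near 0 cannot tell whether arrays of the same number share an animal, so pairing by number stays unknown. With the replicate number as a block the differences were 0.08, 0.66 and 0.77 for Egr1, Egr2 and Egr3, with limma adjusted p of 0.989, 0.872 and 0.922. Without a variance trend the interval of Egr1 narrowed to -0.38 to 0.54. The medians of the Egr motif genes were 0.01 after quantile normalization and 0.08 after median centring, with -0.04 over all genes with a promoter in both, settings added after seeing the data.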

Other observations

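Deprived array 1 had the lowest value of the 3 deprived arrays for Egr2 and Egr3, but Egr1 was lowest on deprived array 3 (7.49, with 7.72 on deprived array 1). Among genes named after their values were seen, Junb (5.19, with 6.77 and 7.18 on deprived arrays 2 and 3), Jun (6.80, with 7.84 and 7.51) and Klf6 (6.59, with 8.26 and 7.91) were also lowest on deprived array 1. The Junb value on deprived array 1 lay below the 95th percentile of the chemosensory receptor genes. Of the 21 other immediate-early transcription factors, 13 (61.9%) were lowest on deprived array 1, compared with 40.6% of all named genes, and 1 was highest on it. The same array was the highest of the deprived arrays for 5 of 6 astrocyte markers, compared with 27.1% of all named genes. Without this array the median difference of the 21 factors was 0.29, compared with 0.07 over all named genes. Over named genes with a mean level at or above the median it was 0.26, close to that of the factors. The median of the astrocyte markers was -0.16 without this array.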
